A study of Homo sapiens with 36 samples.

Results

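A set of 10 core genes of the circadian clock was followed across mutation of 1 or both copies of RAI1 in human neurons made from stem cells: CLOCK, PER1, PER2, PER3, CRY1, CRY2, NR1D1, NR1D2, DBP and RORA. These 10 genes were chosen by symbol, because CLOCK has been reported as a target of RAI1 and sleep is disturbed in Smith-Magenis syndrome, the disorder caused by loss of a copy of RAI1. All 10 symbols matched exactly 1 row each among 62710 genes in the deposited tables. The cells were H9, an established human embryonic stem cell line, and each culture carried a doxycycline-inducible NGN2, a proneural transcription factor whose forced expression turns stem cells into neurons (iNeurons). The 3 genotypes grown were unedited cells (WT), cells with 1 mutated RAI1 copy (HET, RAI1+/-) and cells with both copies mutated (KO, RAI1-/-). Sampling fell on days 0, 3 and 7 of induction, with 4 biological replicates in each of the 9 groups, 36 libraries of total RNA depleted of ribosomal RNA in all. The number of edited clones behind each genotype and the kind of RAI1 mutation are not given in the sources used here, so a difference between genotypes cannot be told apart from a difference between lines. The hour at which a culture was collected is not given either. Each value is therefore the level at 1 moment and does not describe a rhythm.

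The circadian clock is a feedback loop of transcription. CLOCK pairs with BMAL1 and binds E-box elements in the PER, CRY, NR1D and DBP genes, and the PER and CRY proteins return to the nucleus and repress CLOCK and BMAL1. In a side loop the NR1D receptors (REV-ERB) repress, and the ROR receptors activate, genes that carry ROR response elements, BMAL1 among them, while DBP carries the output of the loop to genes with D-box elements. Stem cells are known to hold the parts of the clock without running it as a full oscillator, which appears as cells differentiate.

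The upstream sequences of 6 of the 10 genes are shown because the clock proteins act on their own genes through the short elements marked in them. They were read from RefSeq on GRCh38.p14, 5′ to 3′ on the strand of the gene, and cover the stretch within 250 bases before an annotated start that lies outside annotated exons. Capitals mark an E-box (CACGTG), its variant CACGTT, a D-box (TTATGTAA) or the ROR element core (AGGTCA), each searched on both strands, and none of the marked motifs overlapped another.
PER3, chr1:7784041-7784290, plus strand: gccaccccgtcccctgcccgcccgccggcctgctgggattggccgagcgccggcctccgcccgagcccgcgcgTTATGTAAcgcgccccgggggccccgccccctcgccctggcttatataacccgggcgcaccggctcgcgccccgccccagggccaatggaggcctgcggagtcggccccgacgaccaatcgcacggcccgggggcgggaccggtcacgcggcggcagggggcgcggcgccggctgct
PER2, chr2:238288611-238288860, minus strand: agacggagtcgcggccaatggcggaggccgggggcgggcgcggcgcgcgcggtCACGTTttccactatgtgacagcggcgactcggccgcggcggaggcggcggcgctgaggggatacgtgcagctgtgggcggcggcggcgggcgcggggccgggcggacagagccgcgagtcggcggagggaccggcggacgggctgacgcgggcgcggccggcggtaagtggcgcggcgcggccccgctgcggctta
PER1, chr17:8152436-8152654, minus strand: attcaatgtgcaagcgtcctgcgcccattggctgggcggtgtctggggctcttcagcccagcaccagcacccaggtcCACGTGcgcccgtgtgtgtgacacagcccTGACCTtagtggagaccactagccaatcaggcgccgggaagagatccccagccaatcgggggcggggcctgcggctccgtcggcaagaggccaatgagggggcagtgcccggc
NR1D1, chr17:40100726-40100839, minus strand: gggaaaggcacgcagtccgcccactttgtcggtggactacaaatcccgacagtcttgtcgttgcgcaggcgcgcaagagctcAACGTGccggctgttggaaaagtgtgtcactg
NR1D2, second start, chr3:23945871-23946120, plus strand: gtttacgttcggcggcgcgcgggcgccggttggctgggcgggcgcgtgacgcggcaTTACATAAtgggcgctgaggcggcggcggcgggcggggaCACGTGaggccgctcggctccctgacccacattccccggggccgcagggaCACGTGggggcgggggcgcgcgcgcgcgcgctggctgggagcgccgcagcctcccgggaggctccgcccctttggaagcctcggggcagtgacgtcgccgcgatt
DBP, chr19:48637439-48637629, minus strand: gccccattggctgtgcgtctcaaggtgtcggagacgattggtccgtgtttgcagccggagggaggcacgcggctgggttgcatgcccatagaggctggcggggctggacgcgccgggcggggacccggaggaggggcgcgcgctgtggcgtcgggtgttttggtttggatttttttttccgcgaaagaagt
NR1D2 held a pair of E-boxes, 155 and 105 bases before its second start, and a D-box at 194 bases. The D-box of PER3 lay 177 bases before the start. PER1 held an E-box at 173 bases and a ROR core at 144 bases, and PER2 and NR1D1 held the E-box variant at 197 and 168 bases. DBP held none of the 4 motifs in this window. Over the whole 250 bases before each start, exons included, 8 of the 10 genes and 9 of their 14 windows held at least 1 motif, and the single motif of CRY1 lay within an exon. Among 35116 RefSeq windows of the same length, 6.34% held the E-box, 4.55% its variant, 0.834% the D-box and 12.1% the ROR core. The share of all windows or genes holding any of the 4 motifs was not computed, so the member counts are not read as an excess. A match describes the letters only.

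Library totals ran from 23948079 to 56678796 counts, and the members were covered by 43 (NR1D1) to 3484 (PER1) counts in a library. RAI1 itself was not lower in the edited cells. Its level was 22.2 to 40.2 CPM (counts scaled to a common library total) in WT, 28 to 47.2 in HET and 23.6 to 48.8 in KO at day 0. At day 3 it was 41.7 to 79.1, 40.2 to 85 and 37.8 to 107 CPM, and at day 7 37.5 to 73.7, 50.5 to 85.6 and 63.8 to 95.6 CPM. The ratio of edited to WT means lay between 1.11 and 1.62, with exact permutation p of 0.0571 or more, where 4 against 4 libraries allow no p under 0.0286. The fit across all genes called RAI1 higher in KO than in WT at day 7 (0.69 ± 0.22 on the log2 scale, adjusted p = 0.0296, edgeR), in 2 of the 8 fits that left out 1 library, and in no other genotype comparison. The RAI1 counts thus do not check the genotype labels, and HET and KO below mean the libraries that carry those labels. All 5 stem cell markers were present at day 0 (NANOG, 49.9 CPM in WT) and NANOG was at or under 0.0757 CPM in every group mean afterwards, so the day 0 cultures, although labelled iNeuron, had a stem cell profile. They were not uniform. In replicate 2 the mesenchymal markers named below summed to 1170 CPM in WT, 1530 in HET and 1570 in KO, against 173 to 597 CPM in the other day 0 libraries. Replicate 2 also had the lowest stem cell sum of each genotype (2290, 2200 and 1900 CPM) and the highest neural progenitor sum (2770, 3170 and 3160 CPM). Neuronal markers (8 genes summed) ran from 1240 to 1680 CPM in WT, 1780 to 4570 in HET and 4270 to 8810 in KO at day 3, and from 5220 to 10500, 10600 to 14700 and 11700 to 14400 CPM at day 7. Proliferation markers (6 genes summed) ran from 1110 to 2340 CPM in WT and 451 to 1210 in KO at day 3, and from 26.7 to 195 in WT, 11.1 to 19.7 in HET and 11.2 to 13.7 CPM in KO at day 7. In day 3 and day 7 libraries, astrocyte markers summed to at most 7.09 CPM, Schwann and neural crest markers to at most 39.1 CPM, and mesenchymal markers to at most 823 CPM at day 3 and 34.5 CPM at day 7. Mesenchymal markers (COL1A1, COL1A2, LUM and DCN) ran from 215 to 511 CPM in WT, 129 to 823 in HET and 54.8 to 218 in KO at day 3, and replicate 4 was the highest of each genotype there. The 5 neural progenitor markers summed to 1100 to 1570 CPM in WT, 1090 to 1390 in HET and 762 to 1180 in KO at day 3, and to 721 to 814, 563 to 844 and 425 to 488 CPM at day 7, where KO lay wholly below WT. The 5 stem cell markers summed to 46.3 to 62.3 CPM in WT and 215 to 281 CPM in KO at day 7, where LIN28A had means of 22 and 230 CPM and DPPA4 of 30.5 and 6.25 CPM. DCN was at or under 0.0386 CPM in every group mean, while the mean of COL1A1 at day 3 was 275 CPM in WT, 327 in HET and 87.8 in KO. A group of 5 small structural RNAs took 2.84 to 27.5% of a library's counts, called the structural RNA share here. On deposited TPM, which divides by transcript length, the same RNAs took 47.9 to 86.5% of a library. The WT means of that TPM share were 57.3% at day 0, 73.1% at day 3 and 81.5% at day 7. At day 7 the mean was 68% for HET and 77.4% for KO. TPM is also scaled to a common library total, so this share moves the TPM of other genes. Its part in the differences between CPM and TPM results was not tested.

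**Figure D1:**
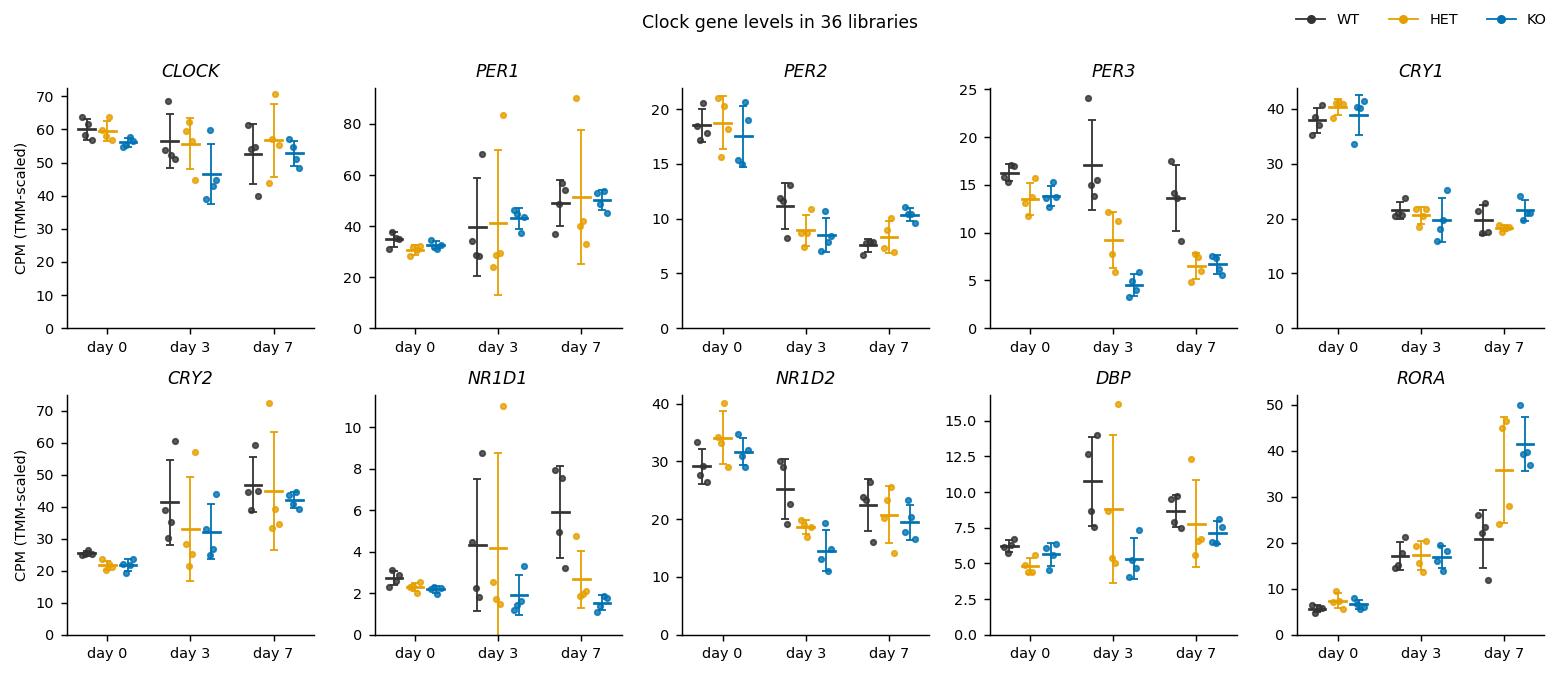
Level of each of the 10 clock genes in CPM (vertical axis, starting at 0, a different range for each gene) at day 0, 3 and 7; each point is 1 library, horizontal bars are group means and whiskers 1 SD of 4 libraries (cut off at 0). CLOCK stays between 39.1 and 70.8 CPM throughout, and RORA climbs from 4.71 to 49.9 CPM over the course. PER3 separates WT from both edited genotypes at day 3 and day 7. At day 3 its KO and HET ranges nearly touch, at 5.9 and 5.91 CPM.

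Compared per transcript length, the clock of WT stem cells was led by CRY1 (11.4 ± 0.866 SD, n = 4, in TPM, which divides by transcript length), followed by PER1 at 7.36 ± 0.713 and CLOCK at 7.14 ± 1.29 TPM. RORA (1.07 ± 0.105 TPM) and NR1D1 (0.865 ± 0.0666 TPM) were the lowest. By day 7 the order had changed: PER1 (4.51 ± 1.43 TPM) and CRY2 (4.11 ± 0.633 TPM) led, CLOCK and CRY1 followed at 2.67 ± 0.828 and 2.46 ± 0.525 TPM, and PER2 had become the lowest at 0.58 ± 0.101 TPM. RORA moved from the ninth rank to the sixth (1.74 ± 0.638 TPM). PER1 and CRY2 did not differ beyond their spread at day 7, nor did CLOCK and CRY1.

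The members also differed in how steady they were between replicate cultures. Within groups, the SD of the log2 level was 0.14 for CRY1 and 0.19 for both CLOCK and PER2, against a median of 0.27 over 12372 genes with a mean of at least 5 CPM. PER3 (0.27), NR1D2 (0.24) and RORA (0.30) lay near that median. DBP and CRY2 (both 0.34), PER1 (0.41) and NR1D1 (0.53) varied more. NR1D1, with group means of 1.54 to 5.91 CPM, had a mean under 5 CPM and was not among those genes. The part of counting noise in its spread was not tested.

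Differentiation of WT cells set the background against which the genotypes were compared. From day 0 to day 3, edgeR's quasi-likelihood test (adjusted p under 0.05 after Benjamini-Hochberg adjustment over all genes) called 5 of the 10 members, CRY2, DBP and RORA higher (CRY2 and DBP with the opposite sign on deposited TPM) and PER2 and CRY1 lower, where 60% of all 22268 genes tested were called. The same 5 members had WT day 3 libraries that did not overlap those of day 0, against 58% of all genes. From day 3 to day 7 it called PER2 alone, lower, where 46.2% of all genes were called, and PER2 was also the single member without overlap (37.5% of all genes). Without WT day 3 replicate 4, PER1, CRY2 (0.42, adjusted p = 0.0373) and NR1D1 (1.03, adjusted p = 0.0282, edgeR) were called as well, all higher at day 7. The median log2 fold change of the members was 0.12 and -0.11 over these intervals, beside 0.07 and 0.01 over all genes tested.

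Between genotypes, no clock gene was called in the stem cells, and PER3, NR1D1, NR1D2 and RORA were called once induction had begun. At day 0, 0 of the 10 members were called in KO against WT (2.08% of all 20437 genes), in HET against WT (1.63%) or in KO against HET (0.856%). At an unadjusted p under 0.05, 1, 5 and 0 members passed in these comparisons, and DESeq2 called 0 in each. The shares of all genes at the unadjusted threshold and by DESeq2 are not given here or below. Counts at these 2 settings therefore lack a background and are not read as results about the members. No member was free of overlap between KO and HET there (3.58% of all genes). At day 3, KO against WT called 2 members, PER3 and NR1D2, both lower, where 21.6% of all 21563 genes were called and 8.93% were called lower. HET against WT at day 3 called 0 members with edgeR (3.28% of all genes), 2 passed an unadjusted p under 0.05 and DESeq2 called 1. KO against HET at day 3 called PER3 alone, lower (4.35% of all genes, and 1.58% called lower). At day 7, KO against WT called 3 members, PER3 and NR1D1 lower and RORA higher, where 32.6% of all 21714 genes were called, and HET against WT called PER3 alone, lower (14.4%, and 6.1% called lower). KO against HET at day 7 called 0 members with edgeR, at the unadjusted threshold and with DESeq2 (1.4% of all genes). On deposited TPM, limma called 0 members in all 9 genotype comparisons, with 3.78% of all genes called in KO at day 3 and 4.64% at day 7. There the median log2 difference of all genes from WT shifted to 0.20 in KO at day 3, 0.18 in KO at day 7 and 0.46 in HET at day 7. The members' share called in KO by edgeR was close to or under that of all genes at day 3 and day 7. Their median log2 fold change in KO against WT was -0.07, -0.39 and -0.07 at day 0, 3 and 7, beside 0.01, -0.05 and -0.04 over all genes. KO and HET were compared with the same WT libraries, so their differences from WT are not independent of each other.

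**Figure D2:**
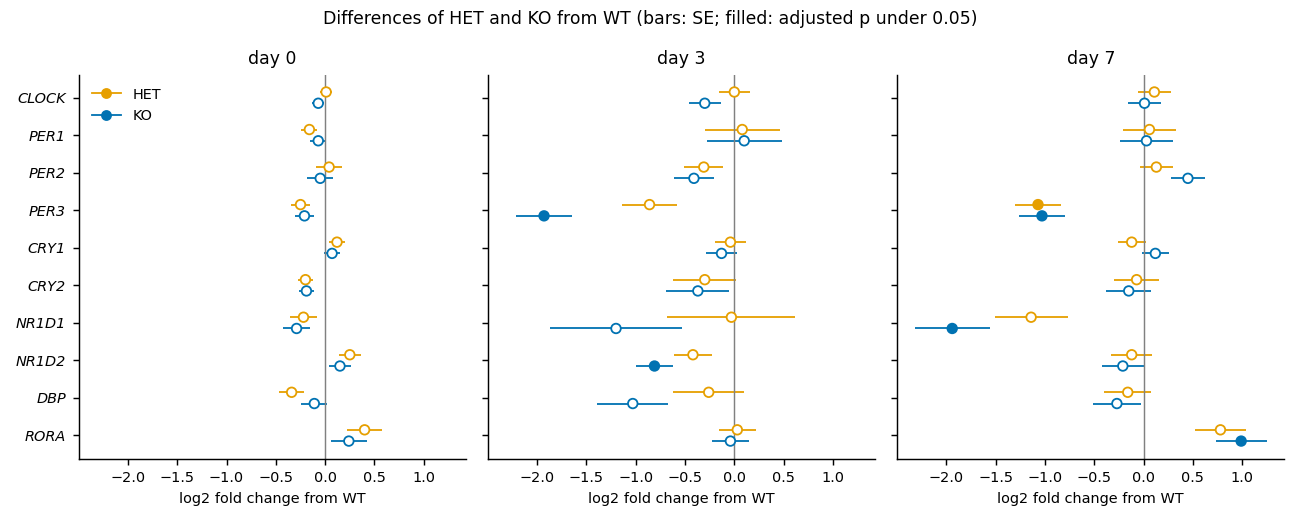
Log2 fold change of HET (orange) and KO (blue) from WT for each clock gene (rows) at day 0, 3 and 7 (panels); bars are 1 SE from edgeR and filled points have an adjusted p under 0.05. The filled points are PER3 and NR1D2 in KO at day 3, PER3, NR1D1 and RORA in KO at day 7, and PER3 in HET at day 7.

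Replicate numbers tied libraries of KO and WT together at day 0 and day 3, and of HET and WT at day 3, where same-numbered libraries deviated together from their group means. With the replicate number as a block, KO against WT at day 3 called 5 members instead of 2, where 37.7% of all genes were called instead of 21.6%: PER3, NR1D2, CRY2 (-0.36, adjusted p = 0.0446), NR1D1 (-1.03, adjusted p = 0.0223) and DBP (-1.01, adjusted p = 0.00396), by edgeR. HET against WT at day 3 then called PER3 (-0.89, adjusted p = 0.03), where 8.79% of all genes were called.

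CLOCK, the DNA-binding activator of the loop (chromosome 4, 55427903 to 55547138, minus strand, GRCh38), was the steadiest member across the study. In WT it measured 63.7, 58.2, 61.7 and 56.7 CPM at day 0, 53.7, 68.6, 52.4 and 51 CPM at day 3, and 61.3, 54, 54.6 and 39.8 CPM at day 7. HET libraries gave 59.9, 58, 63.7 and 56.8 CPM at day 0, 59.5, 62.1, 56.6 and 44.7 CPM at day 3, and 43.8, 57, 70.8 and 55.3 CPM at day 7. KO libraries gave 54.6, 55.4, 57.7 and 56.6 CPM at day 0, 39.1, 59.8, 42.9 and 44.8 CPM at day 3, and 57, 54.6, 51 and 48.4 CPM at day 7. The groups overlapped at every day, and the highest group mean (WT day 0, 60.1 CPM) was 1.29 times the lowest (KO day 3, 46.7 CPM), with every neighbour in the order of the 9 groups overlapping the next. CLOCK was called in none of the 15 comparisons by edgeR. Its difference of KO from WT was -0.07 ± 0.06 at day 0 (log2, SE), -0.30 ± 0.16 at day 3 (adjusted p = 0.22) and 0.01 ± 0.17 at day 7 (adjusted p = 0.97), by edgeR.

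BMAL1, the partner of CLOCK, was low and also uncalled in every genotype comparison: its group means lay between 3.02 CPM (WT day 7) and 4.92 CPM (KO day 0). A pair of relatives that can take the places of CLOCK and BMAL1 did change at day 7. NPAS2 measured 0.121, 0.166, 0.207 and 0.254 CPM in WT, 0.699, 1.06, 0.882 and 1.16 CPM in HET, and 0.385, 0.944, 1.48 and 1.01 CPM in KO. All HET and KO libraries were above all WT libraries, and NPAS2 rose by log2 fold changes of 2.30 ± 0.43 in HET (adjusted p = 0.00418) and 2.32 ± 0.42 in KO (adjusted p = 0.0014, edgeR), at under 2 CPM throughout. At day 3, where every library held 40 or fewer NPAS2 counts, the KO difference had the opposite sign, -1.32 ± 0.44 (adjusted p = 0.0476, edgeR), and passed in 1 of the 8 fits that left out 1 library. BMAL2 measured 1.6, 2.37, 3.17 and 2.82 CPM in WT, 2.54, 9.85, 10.3 and 6.58 CPM in HET, and 14, 11.8, 9.81 and 9.97 CPM in KO. It rose by 2.19 ± 0.37 in KO (adjusted p = 0.000911) and by 1.55 ± 0.37 in HET, where 1 library overlapped WT (adjusted p = 0.0143, edgeR). In WT both fell over the course: BMAL2 from a mean of 27 CPM at day 0 to 7.15 and then 2.49 CPM, and NPAS2 from 0.571 CPM at day 3 to 0.187 CPM at day 7.

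Among the period genes, which encode the repressors that time the loop, PER3 (chromosome 1, 7784320 to 7845177, plus strand) carried the clearest difference between genotypes. At day 0 it measured 15.8, 15.3, 17.1 and 17 CPM in WT, 13.1, 11.7, 13.7 and 15.7 CPM in HET, and 13.6, 12.7, 15.3 and 13.7 CPM in KO. The KO libraries reached no higher than the lowest WT library, with a log2 difference of -0.21 ± 0.10 that did not pass (adjusted p = 0.416, edgeR), and PER3 and CRY2 were the 2 members without overlap there, against 9.29% of all genes. At day 3 PER3 measured 24.1, 15, 13.8 and 15.5 CPM in WT, 12.2, 7.77, 5.91 and 11.2 CPM in HET, and 3.25, 4.97, 4.03 and 5.9 CPM in KO. The 3 genotypes did not overlap in CPM, with HET between WT and KO. KO and HET nearly touched, at 5.9 CPM in KO replicate 4 and 5.91 CPM in HET replicate 3. On deposited TPM they overlapped, at 0.25 to 1.06 in KO and 0.55 to 1.7 in HET. Of all genes, 8.72% did not overlap in CPM between HET and WT and 10.8% between KO and HET. PER3 fell by 1.93 ± 0.28 on the log2 scale in KO against WT (3.81-fold, adjusted p = 0.000386, edgeR) and kept adjusted p values of 0.00219 or less when any single WT or KO library was left out. On deposited TPM, WT measured 1.74 ± 0.763, HET 1.16 ± 0.478 and KO 0.595 ± 0.347 (SD, n = 4), and the KO difference from WT on log2(TPM + 1) was -0.77 (adjusted p = 0.123, limma). The HET difference from WT was -0.86 ± 0.28 and did not pass without the replicate block (adjusted p = 0.13). With the block it passed, as given above. The KO difference from HET was -1.07 ± 0.28 (adjusted p = 0.0469) and passed in 2 of the 8 fits that left out 1 library. It was lost without HET replicate 1 (adjusted p = 0.157), 2 (0.066) or 4 (0.0939) and without KO replicate 1 (0.149), 2 (0.0926) or 3 (0.126), by edgeR.

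At day 7 PER3 was lower in both edited genotypes. It measured 17.5, 14.2, 13.6 and 9.14 CPM in WT, 4.89, 7.79, 7.47 and 5.94 CPM in HET, and 7.6, 7.35, 6.17 and 5.57 CPM in KO. Every HET and KO library was below every WT library, and HET and KO overlapped each other. PER3 fell by 1.07 ± 0.23 on the log2 scale in HET (2.09-fold, adjusted p = 0.00839) and by 1.03 ± 0.23 in KO (2.04-fold, adjusted p = 0.0044, edgeR), and both calls held in all 8 fits that left out 1 library. On deposited TPM, WT measured 1.04 ± 0.343, HET 1 ± 0.746 and KO 0.58 ± 0.158 (SD, n = 4), with differences on log2(TPM + 1) of -0.09 in HET (adjusted p = 0.777) and -0.36 in KO (adjusted p = 0.491, limma). KO and HET differed by 0.04 ± 0.23. Of all genes, 40% did not overlap between KO and WT at day 7 and 14.9% between HET and WT. In WT the gene stayed level: 16.3 ± 0.897, 17.1 ± 4.71 and 13.6 ± 3.44 CPM (SD, n = 4) at day 0, 3 and 7, called over neither interval.

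The change of PER3 over induction differed between KO and WT. From day 0 to day 3 the KO change differed from the WT change by -1.67 ± 0.31 (log2, adjusted p = 0.000682, edgeR), where 8.55% of all 24764 genes were called and NR1D2 was the only other member. From day 3 to day 7 the sign turned, 0.88 ± 0.31 (adjusted p = 0.0412). That second call was lost without any 1 of KO day 3 replicate 1 or 3, KO day 7 replicate 1 or 2, WT day 3 replicate 1, or WT day 7 replicate 2, 3 or 4, with adjusted p between 0.0541 and 0.108. HET differed from WT by -0.61 ± 0.31 over the first interval (adjusted p = 0.692) and by -0.18 ± 0.31 over the second (adjusted p = 0.863). No member was called in either HET interaction by edgeR or DESeq2, where 0.271 and 4.74% of all genes were called by edgeR and 1 and 2 members passed an unadjusted p under 0.05. PER3 moved beside the markers of the cultures: at day 3 all 8 neuronal markers had a higher mean and all 6 proliferation markers a lower mean in KO than in WT, and their part in the PER3 difference was not tested. In bulk RNA, fewer cells that express a gene and less of its RNA in each cell cannot be told apart.

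PER2 (chromosome 2, 238244038 to 238290102, minus strand) fell in WT over both intervals. It measured 18.5, 17.2, 20.6 and 17.8 CPM at day 0, 11.9, 11.6, 8.2 and 13.1 CPM at day 3, and 6.66, 7.81, 7.91 and 7.91 CPM at day 7. The 3 days did not overlap. The fall was 0.73 ± 0.16 on the log2 scale to day 3 (adjusted p = 0.00102) and a further 0.56 ± 0.16 to day 7 (adjusted p = 0.00953, edgeR). The second fell short with the structural RNA share as a covariate (-0.44, adjusted p = 0.0596). In KO, PER2 did not continue downward: it measured 15.4, 15, 20.7 and 19 CPM at day 0, 7.04, 10.7, 7.91 and 8.42 CPM at day 3, and 11.1, 10.4, 10.4 and 9.6 CPM at day 7. From day 3 to day 7 the KO change differed from the WT change by 0.85 ± 0.23 (adjusted p = 0.00718, edgeR), 1 of 3 members called there with PER3 and RORA, where 18.5% of all genes were called. All 4 KO libraries stood above all 4 WT libraries at day 7, with a difference of 0.45 ± 0.17 that missed the threshold (adjusted p = 0.0552). HET measured 21, 15.6, 20.3 and 18.2 CPM, then 8.72, 7.44, 8.69 and 10.9 CPM, then 7.3, 8.98, 10.1 and 6.99 CPM, overlapping WT at each day.

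PER1 (chromosome 17, 8140472 to 8156506, minus strand), the period gene that also answers quickly to signals such as cAMP and glucocorticoids, was not called in any comparison with all libraries in the fit. In WT it measured 30.9, 37.8, 35.3 and 35.1 CPM at day 0, 34.2, 28.5, 28.1 and 68.2 CPM at day 3, and 36.8, 48.5, 56.8 and 54 CPM at day 7. HET gave 28.1, 31.8, 30.6 and 32.3 CPM, then 23.8, 28.5, 29.3 and 83.7 CPM, then 90.2, 40.1, 41.9 and 33.1 CPM. KO gave 34.6, 32, 30.9 and 32.4 CPM, then 46.3, 44.9, 37.3 and 43.6 CPM, then 53, 48.6, 53.8 and 45.2 CPM. Single libraries set these spreads: replicate 4 of WT and of HET at day 3, and replicate 1 of HET at day 7, each had more than 1.5 times the next library of its group. The KO difference from WT was 0.10 ± 0.38 at day 3 (adjusted p = 0.876). Without replicate 4 of every day 3 group it was 0.49 and passed (adjusted p = 0.0436, edgeR), as did the KO difference from HET, 0.65 (adjusted p = 0.0412). Without replicate 1 of WT and of HET at day 7, HET was lower than WT by -0.45 (adjusted p = 0.0127). In WT from day 3 to day 7 the difference was 0.31, and 0.69 with a call (adjusted p = 0.00329, edgeR) without day 3 replicate 4.

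The cryptochromes, which bind and block CLOCK and BMAL1 directly, moved in opposite directions on the CPM scale as WT cells differentiated (on deposited TPM the sign of CRY2 turned) and were not called between genotypes without the replicate block, which called CRY2 lower in KO at day 3 as given above. CRY1 (chromosome 12, 106991364 to 107093829, minus strand) measured 35.2, 38.6, 37.1 and 40.7 CPM at day 0 in WT, 20.5, 21, 20.7 and 23.8 CPM at day 3, and 21.4, 17.4, 22.8 and 17.6 CPM at day 7. It fell by 0.82 ± 0.12 on the log2 scale to day 3 (adjusted p = 4.83e-05, edgeR), and its further difference to day 7 did not pass (-0.12 ± 0.12, adjusted p = 0.46). HET gave 38.3 to 41.2, 18.5 to 21.7 and 17.6 to 18.9 CPM at the 3 days, and KO 33.6 to 41.5, 16 to 25.3 and 19.8 to 24.2 CPM. At day 7 the KO libraries all lay above those of HET, the only member without overlap in that comparison (8.64% of all genes), with a difference of 0.24 ± 0.14 (adjusted p = 0.467, edgeR).

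CRY2 (chromosome 11, 45847118 to 45883248, plus strand) measured 24.8, 25.1, 26.4 and 25.2 CPM in WT at day 0, 39, 30.3, 35.3 and 60.6 CPM at day 3, and 44.5, 39.1, 59.1 and 44.9 CPM at day 7. All day 3 libraries were above all day 0 libraries, and it rose by 0.70 ± 0.19 (adjusted p = 0.00537, edgeR). That call was lost with the structural RNA share as a covariate (0.34, adjusted p = 0.261), and on deposited TPM the sign turned (-0.22 on log2(TPM + 1)). Between stem cells CRY2 was lower in the edited lines without passing: HET measured 23.5, 20.2, 22.1 and 21.2 CPM and KO 22.1, 19.3, 21.9 and 23.7 CPM at day 0, all below WT, with differences of -0.20 ± 0.08 (adjusted p = 0.325) and -0.19 ± 0.08 (adjusted p = 0.299, edgeR). At day 3 HET gave 28.2, 21.5, 25.1 and 57.1 CPM and KO 32.9, 24.9, 26.8 and 44 CPM, replicate 4 being the highest in all 3 genotypes. At day 7 HET gave 72.2, 33.3, 39.3 and 34.7 CPM and KO 43.7, 40.8, 44.7 and 39.3 CPM. Without HET replicate 1, whose level was the highest of all, HET at day 7 was lower than WT by -0.42 (adjusted p = 0.0314) in place of -0.07 (adjusted p = 0.877, edgeR).

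Of the members, NR1D1 had the largest difference from WT at day 7. NR1D1 is REV-ERB alpha, a nuclear receptor that represses BMAL1 (chromosome 17, 40092787 to 40100725, minus strand). At day 0 NR1D1 measured 2.31, 3.12, 2.59 and 2.88 CPM in WT, 2.28, 2.35, 2.03 and 2.54 CPM in HET, and 2.21, 2.32, 1.97 and 2.25 CPM in KO. At day 3 it measured 4.47, 2.25, 1.84 and 8.75 CPM in WT, 2.56, 1.72, 1.46 and 11 CPM in HET, and 1.2, 1.43, 1.65 and 3.31 CPM in KO. Replicate 4 was again the highest of each genotype, and the groups overlapped. The KO difference of -1.20 ± 0.67 did not pass without the replicate block (adjusted p = 0.221, edgeR) and passed with it, as given above. At day 7 it measured 7.93, 4.94, 7.55 and 3.23 CPM in WT, 4.74, 1.87, 1.98 and 2.13 CPM in HET, and 1.1, 1.39, 1.89 and 1.76 CPM in KO. All KO libraries were below all WT libraries. NR1D1 fell by 1.94 ± 0.38 on the log2 scale in KO (3.83-fold, adjusted p = 0.002) and the call held without any single library, with adjusted p values of 0.00881 or less. On deposited TPM, WT measured 0.703 ± 0.202 and KO 0.278 ± 0.09 (SD, n = 4), and the difference on log2(TPM + 1) was -0.41 (adjusted p = 0.16, limma). In HET the difference of -1.14 ± 0.37 missed the threshold (adjusted p = 0.0529). It was -1.60 (adjusted p = 0.00279) without HET replicate 1 and -1.34 (adjusted p = 0.0289) without WT replicate 4, by edgeR. The KO change from day 3 to day 7 differed from that of WT by -0.75 ± 0.68 (adjusted p = 0.503). NR1D1 shares 9.5% of its exonic bases with THRA on the opposite strand, and strand use in the counting is not given in the sources used here. THRA did not pass in KO at day 7 (0.29 ± 0.16, adjusted p = 0.179, edgeR) and its sign was opposite.

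NR1D2 (REV-ERB beta, chromosome 3, 23945260 to 23980618, plus strand) was lower in KO at day 3. It measured 30.1, 29, 19.2 and 22.6 CPM in WT, 19.9, 19, 17 and 18.7 CPM in HET, and 13.1, 19.4, 11 and 14.8 CPM in KO. A single KO library overlapped WT, and NR1D2 fell by 0.81 ± 0.19 on the log2 scale (1.76-fold, adjusted p = 0.0091, edgeR), with adjusted p values of 0.04 or less without any single library. On deposited TPM, WT measured 2.82 ± 1.3 and KO 2.64 ± 2.03 (SD, n = 4), and the difference on log2(TPM + 1) was -0.16 (adjusted p = 0.833, limma). The change from day 0 to day 3 also differed between KO and WT, by -0.91 ± 0.25 (adjusted p = 0.0208), a call lost without KO day 3 replicate 3 (adjusted p = 0.0537) or WT day 3 replicate 1 (adjusted p = 0.0507). At day 0 the levels were 33.3, 27.7, 29.2 and 26.4 CPM in WT, 34.2, 33.1, 40.1 and 29.1 CPM in HET, and 34.8, 31, 29.1 and 31.9 CPM in KO. At day 7 they were 23.9, 23.4, 26.5 and 16.1 CPM in WT, 20.2, 23.3, 25.6 and 14.1 CPM in HET, and 17.7, 23.3, 20.3 and 16.5 CPM in KO. The genotypes overlapped again by day 7, where the KO difference was -0.21 ± 0.21 (adjusted p = 0.464, edgeR).

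RORA, the activator that competes with the NR1D receptors for the same elements and that also serves neuronal differentiation (chromosome 15, 60488284 to 61229319, minus strand), rose in WT and stood higher in KO than in WT at day 7. WT measured 6.4, 4.71, 5.84 and 5.8 CPM at day 0, 14.5, 15.1, 17.7 and 21.2 CPM at day 3, and 26, 22.2, 23.3 and 11.8 CPM at day 7. RORA rose by 1.59 ± 0.22 from day 0 to day 3 (3-fold, adjusted p = 2.66e-05, edgeR), a difference that did not pass on deposited TPM (0.36 on log2(TPM + 1), adjusted p = 0.0972, limma). HET gave 7.04, 9.57, 7.32 and 5.65 CPM, then 19.3, 15.5, 13.7 and 20.4 CPM, then 24, 44.9, 46.4 and 27.9 CPM. KO gave 7.98, 6.72, 5.63 and 6.01 CPM, then 16.1, 19.5, 13.9 and 18.1 CPM, then 49.9, 39.2, 39.8 and 36.8 CPM. The genotypes overlapped at day 0 and day 3, and at day 7 all KO libraries were above all WT libraries. RORA rose by 0.99 ± 0.26 in KO (1.99-fold, adjusted p = 0.0122, edgeR) and kept the call without any single library. With the structural RNA share as a covariate the difference was 0.77 and missed the threshold (adjusted p = 0.057), and on log2(TPM + 1) it was 0.82 (adjusted p = 0.385, limma). The KO change from day 3 to day 7 exceeded that of WT by 1.01 ± 0.30 (adjusted p = 0.0174). In HET the difference from WT at day 7 was 0.78 ± 0.26 (adjusted p = 0.0653), or 0.90 (adjusted p = 0.0147) without HET replicate 1, by edgeR. The summed neuronal markers were higher in every HET and KO library than in every WT library at day 7. The closest libraries were near each other (WT replicate 4 at 10500 CPM, HET replicate 1 at 10600 CPM). Not every marker followed the sum. The TUBB3 mean was 2810 CPM for KO and 3420 CPM for HET, against 3430 CPM for WT. The ELAVL3 mean was 258 CPM for KO and 313 CPM for HET, against 274 CPM for WT. The other markers had higher means in both edited genotypes. The part of these markers in the RORA difference was not tested.

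DBP, the D-box activator of clock output (chromosome 19, 48630030 to 48637438, minus strand), rose in WT by 0.78 ± 0.20 from day 0 to day 3 (adjusted p = 0.00345, edgeR), from 6.16, 5.73, 6.29 and 6.7 CPM to 12.7, 8.68, 7.58 and 14 CPM. With the structural RNA share as a covariate this was 0.66 (adjusted p = 0.0613), and on deposited TPM the sign turned (-0.39 on log2(TPM + 1)). At day 0 HET measured 4.92, 4.43, 4.41 and 5.57 CPM and KO 6.09, 4.54, 5.56 and 6.38 CPM. HET lay wholly below WT at day 0, as CRY2 did, against 7.83% of all genes, with a difference of -0.34 ± 0.13 (adjusted p = 0.311). At day 3 HET measured 8.69, 5.35, 5.06 and 16.2 CPM and KO 4.02, 5.23, 4.67 and 7.36 CPM. All KO libraries were below all WT libraries at day 3, as for PER3 (25% of all genes), and the difference of -1.03 ± 0.36 missed the threshold by a little (adjusted p = 0.0598, edgeR). It passed without KO replicate 4 (-1.20, adjusted p = 0.0375) and with the replicate block given above. At day 7 WT measured 9.51, 7.88, 9.71 and 7.48 CPM, HET 12.3, 5.56, 6.56 and 6.7 CPM, and KO 6.52, 6.43, 8.08 and 7.55 CPM. The genotypes overlapped, HET with WT through its replicate 1 alone. The HET difference from WT was -0.16 (adjusted p = 0.713), and -0.49 (adjusted p = 0.0378, edgeR) without that library. DBP shares 10.1% of its exonic bases with SPHK2 on the opposite strand. SPHK2 went the other way at day 3, higher in KO by 1.13 ± 0.29 (adjusted p = 0.013, edgeR).

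Libraries in which NR1D1 was high were also high in DBP. Of 8 pairs of clock genes compared over the 36 libraries as deviations of log2(CPM + 1) from the group mean, NR1D1 and DBP were the only pair that passed on Pearson's r: 0.91 (adjusted permutation p = 8e-05, unadjusted p = 1e-05, the smallest that 100000 permutations can give), with Spearman's rho of 0.85. Without the 2 libraries farthest out, HET and WT day 3 replicate 4, r was 0.87. With the structural RNA share removed it was 0.86. Libraries were permuted within groups without regard to replicate number. The tie between same-numbered libraries was thus left out, and the permutation p values may be too small. PER2 with PER3 passed by Spearman's rho (0.49, adjusted p = 0.038) and not by Pearson's r (0.42, adjusted p = 0.1). PER3 with DBP gave r = 0.42 (adjusted p = 0.2) and PER1 with PER2 0.31 (adjusted p = 0.23). CLOCK with CRY1 gave 0.04 (adjusted p = 0.88), NR1D1 with NR1D2 0.12 (adjusted p = 0.62), NR1D1 with CLOCK -0.35 (adjusted p = 0.2) and NR1D1 with BMAL1 -0.41 (adjusted p = 0.099). The other pairs depended on the scale. On log2(TPM + 1), r was 0.76 for NR1D1 with DBP, 0.95 for CLOCK with CRY1, 0.88 for PER3 with DBP, 0.79 for PER2 with PER3, 0.76 for PER1 with PER2 and 0.46 for NR1D1 with NR1D2, and it turned to 0.37 for NR1D1 with CLOCK and with BMAL1. With the structural RNA share removed, r was 0.46 for CLOCK with CRY1, 0.41 for NR1D1 with NR1D2, 0.56 for PER3 with DBP, -0.12 for NR1D1 with CLOCK and -0.10 for NR1D1 with BMAL1. The same 3 libraries that were high in PER1 and CRY2 (WT and HET day 3 replicate 4, HET day 7 replicate 1) were high in NR1D1 or DBP. The structural RNA share was highest in HET day 7 replicate 1, at 27.5% of counts.

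**Figure D3:**
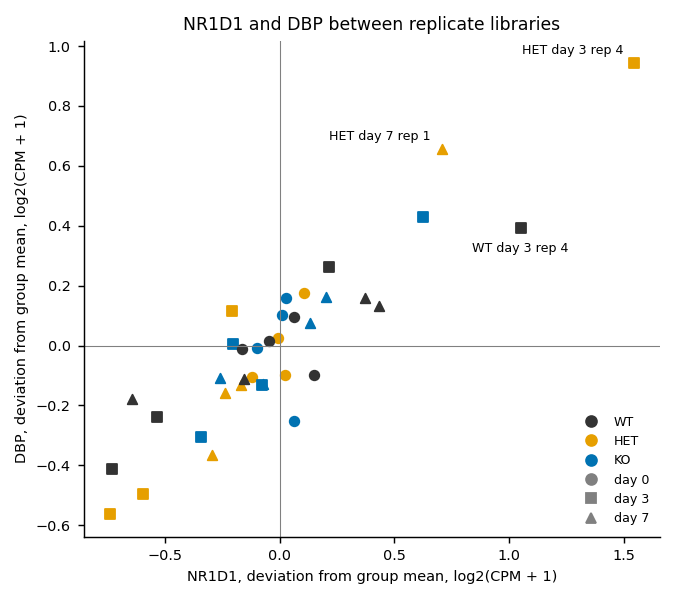
DBP (vertical axis) against NR1D1 (horizontal axis) in 36 libraries, each as the deviation of log2(CPM + 1) from the mean of its group of 4; colour gives the genotype and shape the day. Points run from lower left to upper right (r = 0.91), with HET day 3 replicate 4 the farthest out.

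Beyond the 10 members, 31 other genes of the clock machinery were read from the same fits, grouped as activators, ROR receptors, D-box factors, further repressors, kinases and a phosphatase, ubiquitin pathway genes and modifiers. At day 0, 0 of the 30 tested were called in KO against WT, HET against WT or KO against HET by edgeR. At day 3, KO against WT called 6 of 30, 4 higher and 2 lower, beside 21.6% of all genes. HET against WT called 0, with 4 at an unadjusted p under 0.05, beside 3.28% of all genes. At day 7, KO against WT called 9 of 30, 7 higher and 2 lower (32.6% of all genes), HET against WT 5, 4 higher and 1 lower (14.4%), and KO against HET 0 (1.4%). With the replicate block, KO against WT at day 3 called 15 (37.7% of all genes) and HET against WT at day 3 called 2 (8.79%). Their median log2 fold change in KO was 0.04, 0.12 and 0.34 at day 0, 3 and 7, beside 0.01, -0.05 and -0.04 over all genes. WT differentiation called 20 of 29 from day 0 to day 3 (5 higher, 15 lower, beside 60% of all genes) and 14 of 29 from day 3 to day 7 (8 higher, 6 lower, beside 46.2%), with medians of -0.57 and 0.15.

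**Figure D4:**
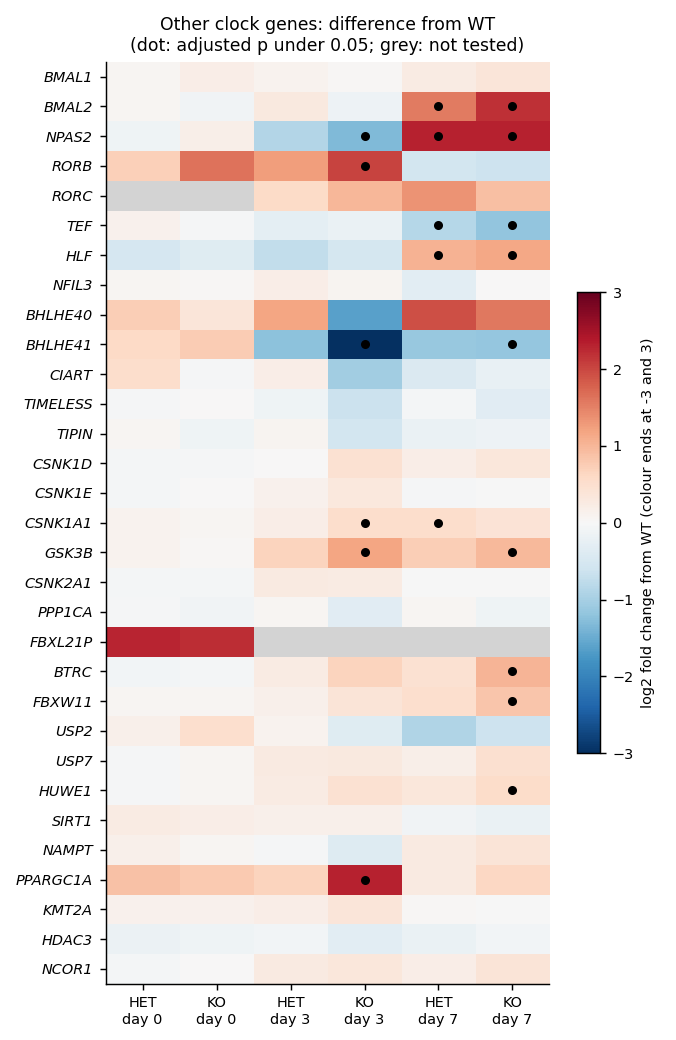
Log2 fold change from WT (colour) of 31 other clock genes (rows) in HET and KO at day 0, 3 and 7 (columns); dots mark an adjusted p under 0.05 and grey cells were not tested. Colour ends at -3 and 3, which BHLHE41 in KO at day 3 (-3.11) passes; dots are absent at day 0.

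Of the named repressors outside the members, BHLHE41 (DEC2, a repressor that binds E-boxes) had the largest difference of the called genes at day 3. It measured 2.19, 2.27, 2.15 and 3.84 CPM in WT, 1.85, 0.697, 0.524 and 1.34 CPM in HET, and 0.0718, 0.39, 0.363 and 0.395 CPM in KO. KO libraries were all below HET and WT libraries, and BHLHE41 fell by 3.11 ± 0.51 on the log2 scale against WT (adjusted p = 0.000882, edgeR). The KO change from day 0 to day 3 differed from that of WT by -3.82 ± 0.86 (adjusted p = 0.00434), and at day 7 it was lower in KO by -1.17 ± 0.41 (adjusted p = 0.0417).

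PPARGC1A, a coactivator of ROR receptors, measured 0.755, 1.64, 2.03 and 2.47 CPM in WT, 2.27, 3.26, 2.42 and 2.82 CPM in HET, and 9.95, 9.57, 6.71 and 8.15 CPM in KO at day 3. KO lay above both other genotypes, higher by 2.30 ± 0.32 than WT (adjusted p = 0.00024) and by 1.64 ± 0.31 than HET (adjusted p = 0.0106, edgeR). RORB, a neural relative of RORA, was higher in KO at day 3 by 2.03 ± 0.41 (adjusted p = 0.00316, edgeR). It measured 2.75 to 5.1 CPM in KO against 0.765 to 1.17 CPM in WT, where libraries held 32 to 52 counts. KO already stood above WT at day 0, without a call, at 2.98 to 10.5 CPM against 1.4 to 1.98 CPM. At day 7 the order turned, with 0.822 to 2.23 CPM in KO against 2.25 to 3.27 CPM in WT. TEF and HLF, the D-box relatives of DBP, parted at day 7 on the CPM scale. TEF measured 30.9, 24, 28.7 and 33.2 CPM in WT, 22.9, 13.7, 13.2 and 15.3 CPM in HET, and 13.2, 13.8, 12.6 and 11.8 CPM in KO, and fell by 0.85 ± 0.18 in HET (adjusted p = 0.009) and by 1.18 ± 0.19 in KO (adjusted p = 0.000549, edgeR). HLF, at 0.878 to 2.78 CPM in WT, rose by 1.05 ± 0.32 in HET (adjusted p = 0.0431, edgeR), at 2.71 to 4.64 CPM, and by 1.16 ± 0.32 in KO (adjusted p = 0.0143, edgeR), at 3.35 to 4.66 CPM. The TPM means of HLF kept this direction, 0.195 in WT, 0.508 in HET and 0.372 in KO. Those of TEF were 2.25 in WT, 2.53 in HET and 1.43 in KO, so KO kept its direction and HET did not.

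The genes whose levels ran most like those of each member over the 36 libraries were named by Pearson's r of log2(CPM + 1) among 12363 genes, as a description without a test. Values across all 36 libraries share the differences between days and genotypes. CRY1 ran closest to ID3 (0.965), SFRP2 (0.961) and KRT18 (0.959), RORA to SCAPER (0.958), CEP85L (0.956) and GPR158 (0.954), and PER2 to GPR143 (0.944), LPIN2 (0.943) and WTIP (0.942). CRY2 ran closest to SERGEF (0.939), TMEM9 (0.938) and ANKZF1 (0.932), and DBP to KAT8 (0.903), PSME1 (0.894) and RAB24 (0.885). NR1D2 was most like RNF169 (0.869), CTDSPL (0.864) and CMTM4 (0.854), and NR1D1 like LINC01001 (0.857), WHAMM (0.847) and QARS1 (0.835). PER3 ran close to TARBP1 (0.831) and NBPF19 (0.825), and PER1 like RASSF1 (0.818), PLEKHG5 (0.807) and ALKBH5 (0.804). CLOCK, whose group means moved least on the CPM scale, had the lowest values: PHTF2 (0.776), SMCHD1 (0.737) and AHI1 (0.724).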

How the data were processed

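The 36 libraries (3 genotypes, 3 days, 4 replicates, 1 labelled batch) came from total RNA after removal of ribosomal RNA, read as pairs of 151 bases, per the labels' protocols. The submitters' processing notes name cutadapt 4.8, FastQC 0.11.8, MultiQC 1.20, STAR 2.7.8a, RSEM 1.3.3 and GRCh38. Gene-level expected counts (whole numbers in the file) and TPM were deposited by the authors. The annotation release and the strand setting are not given in the sources used here. Gene coordinates and exon overlaps were read from GENCODE 29, in which 58274 of 62710 gene identifiers matched, and 4 reporter sequences (at most 0.0171% of a library) were left out of library sizes and tests.

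In R 4.3.3, edgeR 4.0.16 tested the counts by quasi-likelihood after TMM scaling and the filterByExpr filter, with Benjamini-Hochberg adjustment over all genes tested and a threshold of 0.05. Genotypes were compared within the 12 libraries of a day, days within the 12 WT libraries, and courses over all 36 libraries. Levels are CPM after TMM scaling over the 36 libraries, and fitted differences are log2 fold changes with their SE. Values on TPM were tested with limma 3.58.1 on log2(TPM + 1), where a fold change of a low gene is understated. DESeq2 1.42.0, size factors, the filter, the fit's libraries, a replicate block, the share of 5 small structural RNAs (RN7SL1, RN7SL2, RN7SK, RPPH1, RMRP) and leaving out each library were tried as alternatives. The test was also run on simulated counts with the same dispersion for every gene and no tie between same-numbered libraries. That run does not check the test under the spread and pairing of these libraries. Libraries of a group differed by more than counting noise (chi-square per gene of 13.8 or more in every pair). Same-numbered libraries deviated together (Pearson's r across 16357 genes, which are not independent replicates) by 0.29 to 0.695 for KO and WT at day 0, 0.129 to 0.588 at day 3, and 0.166 to 0.796 for HET and WT at day 3. The main fits left this pairing out, and the replicate block was fitted as an alternative. The labels call replicates biological without naming what was separate, so p-values measure the spread between these cultures. Counting limits precision most for NR1D1, with 43 to 333 counts per library.

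The 10 members and the gene lists were chosen with earlier results of these data known. All members and RAI1 were named in every comparison, the other clock genes only where called, at most the 4 with the largest difference per comparison, and for each member the 3 genes most like it. Some genes these rules name are not reported here, and 1 of them was left out of the list counts.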

Additional observations from a re-analysis of the deposited data

Results flagged for a closer look

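Of 99 groups of 4 libraries (the 10 members and RAI1 in 9 groups) checked for a library standing apart from the other 3 (Dixon's 95% critical value), 11 held one, where chance gives about 1 in 20, or 5. In WT at day 3, CLOCK was high in replicate 2 (68.6 CPM), and PER1 (68.2 CPM) and CRY1 (23.8 CPM) were high in replicate 4. In HET at day 3, replicate 4 was high in PER1 (83.7 CPM) and NR1D1 (11 CPM). HET day 7 replicate 1 stood apart in 4 of the 10 members: PER1 (90.2 CPM), CRY2 (72.2 CPM), NR1D1 (4.74 CPM) and DBP (12.3 CPM). Its structural RNA share was the highest, at 27.5% of counts, and the part of that share in these levels was not tested. CRY1 was low in HET day 0 replicate 1 (38.3 CPM) and PER2 low in WT day 7 replicate 1 (6.66 CPM), against 40.9 and 7.81 CPM in the nearest library.

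The change over an interval differed between KO and WT for 4 members by edgeR's interaction test. From day 0 to day 3 the difference was -1.67 for PER3 (adjusted p = 0.000682) and -0.91 for NR1D2 (adjusted p = 0.0208), both on the log2 scale. From day 3 to day 7 it was 0.85 for PER2 (adjusted p = 0.00718), 0.88 for PER3 (adjusted p = 0.0412) and 1.01 for RORA (adjusted p = 0.0174).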

How the results depend on the processing

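Of 18 called results for the members, 370 alternative fits left 314 on the same side of the threshold with the same sign, 52 short of the threshold and 4 reversed. Among 132 uncalled member results, 50 of 2700 alternative fits made a call. On log2(TPM + 1) and log2(TPM + 0.1), limma called 0 members in KO against WT at day 3 and day 7, HET against WT at day 7, KO against HET at day 3 and both KO interactions. There the WT differences of day 3 from day 0 reversed: CRY2 to -0.22 and -0.27, DBP to -0.39 and -0.52, RAI1 to -0.09 and -0.12. The cause was not tested.

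KO against WT at day 3 called 5 members with the replicate block and 4 without library 4 of every day 3 group, an alternative chosen after seeing the data. HET against WT at day 3 called 1 with DESeq2, with all 36 libraries or with the replicate block. KO against HET at day 3 called 0 with only those 2 groups or with DESeq2 size factors. HET against WT at day 7 called 3 with DESeq2, 2 with all 36 libraries, 2 with library size alone, 3 with the replicate block and 5 without library 1 of WT and of HET, also chosen after seeing the data, which gave 1 in the HET interaction from day 3 to day 7. For the replicate block at day 3 the shares of all genes called were 37.7% in KO and 8.79% in HET against WT. For the other alternatives in this section no such share is given, so a changed count is not read as a result about the clock genes. With the structural RNA share as a covariate, WT called 3 from day 0 to day 3 and 0 from day 3 to day 7, and without library 4 of day 3 the latter was 4.

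Leaving out 1 library gave 2 to 3 members in KO against WT at day 3, 0 to 1 in KO against HET at day 3, 1 to 5 in HET against WT at day 7 (5 without HET replicate 1), 1 to 4 in WT from day 3 to day 7 (4 without day 3 replicate 4), 1 to 2 and 2 to 4 in the KO interactions and 0 to 1 in the last HET interaction. The other counts did not move: 3 in KO against WT at day 7, 5 in WT from day 0 to day 3, and 0 elsewhere.

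Of the 31 other clock genes, the replicate block called 1 in HET at day 0, 15 and 2 in KO and HET against WT at day 3, 4 in KO against HET at day 3 and 4 in the first KO interaction. Dropping the filter gave 1 for KO against WT on day 0, 2 for KO against HET on day 3 and 3 for HET against WT on day 7, and with library size alone 2 in KO against HET at day 3 and 1 in the first KO interaction. RAI1 passed 1 exact test on TPM (KO day 7, p = 0.0286) and 0 on CPM. Of 8 pairs of clock genes, 6 passed on TPM and 3 with the structural RNA share removed, where 1 passed as reported. In the comparisons of members not named above, the replicate block left the number of calls as it was. In 3 comparisons all same-numbered libraries correlated by more than 0.1 across genes. Outside these they correlated by -0.314 to 0.694, with at least 1 pair at or under 0.1 in each comparison. Best matches with the own number do not separate them. They numbered 4 in KO against WT at day 0, 3 at day 3, and 2 in HET against WT at day 3. Outside the 3, they numbered 3 in HET against WT at day 0 and in KO against HET at day 3 and day 7. Leaving out single libraries from the exact test of RAI1 was not run, and depth limited NR1D1 most.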
